A study of Homo sapiens with 45 samples.

Results

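TALL-1 and KOPT-K1 are 2 human T-cell acute lymphoblastic leukaemia (T-ALL) lines, and their mRNA was compared in vehicle-treated cells to describe how the lines differ before any inhibitor is given. The comparison used 6 of the series' 45 poly(A) RNA-seq libraries, chosen by label: 3 of TALL-1 and 3 of KOPT-K1, each from cells kept for 6 h in 0.01% DMSO. The series as a whole studied loss or inhibition of cBAF, a nucleosome-moving complex, in 4 T-ALL lines. Another 6 libraries of the same 2 lines, given 1 uM BRM014 (an inhibitor of the cBAF ATPases SMARCA4 and SMARCA2) for 6 h, served as a second set of libraries, and 3 DMSO libraries of the line CCRF-CEM gave a point of reference. Labels call the libraries of a group biological replicates, but each group is 1 cell line, so p-values here rest on the spread between cultures within groups and not between patients or clones. That spread was estimated for each gene over all 6 groups of the 3 lines, so the CCRF-CEM and BRM014 libraries count in it too. Levels are in TPM (transcripts per 1000000, a unit corrected for gene length), given as the 3 libraries' values or as mean ± SD with n = 3. Differences are TALL-1 minus KOPT-K1 on the log2(TPM + 1) scale with the standard error from limma, and a gene was called at a Benjamini-Hochberg adjusted p under 0.05 from limma. The added 1 TPM makes this scale understate the fold of genes that are low in 1 line.

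T-ALL arises from T-cell precursors of the thymus and keeps much of the programme of the stage at which it arose. In many cases the basic helix-loop-helix factor TAL1, or its relative LYL1, is switched on together with an LMO adaptor, and these assemble with LDB1, GATA3, RUNX1 and MYB at enhancers. KOPT-K1 is known for a translocation that places LMO2 beside a T-cell receptor locus. NOTCH1, a surface receptor whose cleaved intracellular part activates genes in the nucleus, is the other frequent driver, and cortical thymocytes are recognised by CD1 molecules, the RAG recombinase and the pre-T-cell receptor.

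Both lines carried T-cell mRNA. CD3E, a chain of the T-cell receptor complex, stood at 1048, 978 and 969 TPM in KOPT-K1 and 1077, 1051 and 985 TPM in TALL-1, with groups that overlapped (difference 0.06 ± 0.12, adjusted p = 0.7). The 10 tested T-cell markers summed to 3668 to 3891 TPM in TALL-1 and 3948 to 4156 TPM in KOPT-K1. Reads recovered from the TPM values came to 24.56 to 25.18 M per TALL-1 library and 20.55 to 23.92 M per KOPT-K1 library (M, reads in units of 1000000). TALL-1 replicate 3 stood apart: ribosomal RNA genes took 2.87% of its reads against 0.258% and 0.294% in the other TALL-1 libraries and 0.306 to 0.371% in KOPT-K1. Without it the counts below were 5528 genes higher and 5490 lower in TALL-1, of which 1666 and 1842 by at least 2-fold. Over the 39 gene lists, leaving it out moved the number of members called higher by at most 3 and the number called lower by at most 3, and 21 lists kept both counts. The share of TPM in mitochondrially encoded mRNAs was 5.37 to 5.77% in TALL-1 and 4.99 to 6.72% in KOPT-K1.

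Most tested genes differed between the lines. Genes were tested if 3 or more of the table's 18 libraries reached 1 TPM. Of these 16241 genes 11442 (70.5%) were called, 5744 (35.4%) higher in TALL-1 and 5698 (35.1%) lower. Those past 2-fold numbered 3446 (21.2%), with 1626 (10%) higher and 1820 (11.2%) lower. All 3 TALL-1 libraries lay beyond all 3 KOPT-K1 libraries in 12342 genes, or 76% of those tested. A typical gene differed by 0.48 on the log2 scale (the median absolute difference), while the median SD between libraries of a line was 0.08 in each. The counts of gene lists given next are read against these shares. The lists describe the lines and were not tested as sets. A member under 1 TPM throughout 1 line passed the filter through other libraries, so its direction follows in part from the filter.

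**Figure D1:**
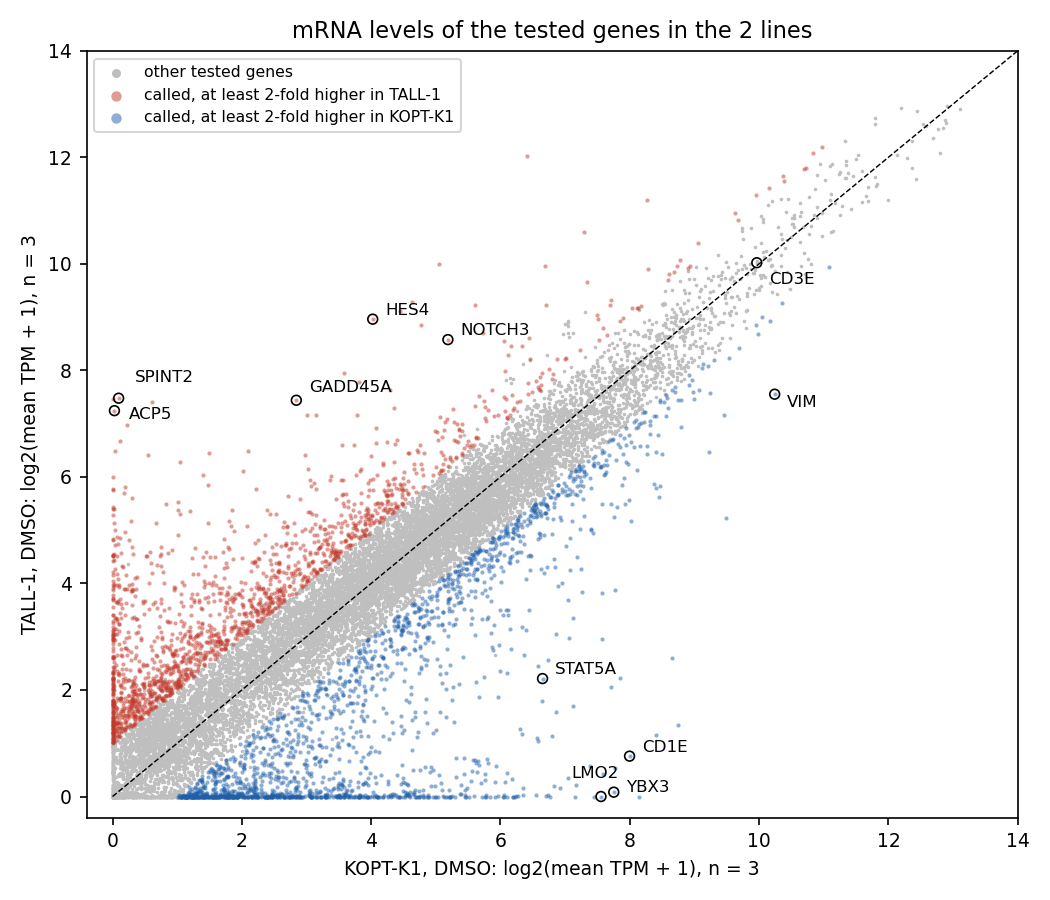
Each point is 1 of 16241 tested genes, placed by its mean level in 3 KOPT-K1 libraries (x axis) and 3 TALL-1 libraries (y axis), both as log2(mean TPM + 1). Coloured points are the 1626 genes called at least 2-fold higher and the 1820 called at least 2-fold lower in TALL-1, and circled genes such as LMO2 and YBX3 lie on or just above the x axis, at or near 0 TPM in TALL-1.

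The 10 largest decreases among protein-coding genes, ordered by the log2 difference, were in YBX3, LMO2, PRSS1, FXYD2, its overlapping read-through gene FXYD6-FXYD2, CD1E, IGLL1, COTL1, PSAT1 and TNFSF10. YBX3, a cold-shock protein that binds DNA and RNA (chromosome 12, 10699089 to 10723323, GRCh38), stood at 227, 223 and 194 TPM in KOPT-K1 and 0.0884, 0.0431 and 0.0440 TPM in TALL-1 (difference -7.67 ± 0.08, adjusted p = 8.8e-19). TALL-1 held 4 reads of it in all 3 libraries together, against 12970 in KOPT-K1. PRSS1, which encodes trypsinogen and lies inside the T-cell receptor beta locus (chromosome 7, 142749472 to 142753072), stood at 172, 173 and 174 TPM in KOPT-K1 and had 0 reads in TALL-1, at least 1229.6-fold lower when TALL-1 is set at a floor of 3 reads per library. Reads of PRSS1 and of its near-identical neighbours in that locus may be shared, so its level is uncertain. COTL1, an actin-binding protein, was at 132, 149.6 and 144 TPM in KOPT-K1 and at 0 reads in TALL-1, at least 799.7-fold lower. Enzymes and signalling genes were among these decreases too. PSAT1, which makes serine, was at 152, 200.2 and 219.7 TPM in KOPT-K1 and 0.0999, 0.584 and 0.348 TPM in TALL-1 (-7.16 ± 0.22). TNFSF10, the death ligand TRAIL, was at 153, 143 and 132 TPM against 0.0737, 0.323 and 0.110 TPM (-6.95 ± 0.10). IGLL1, part of the surrogate light chain of precursor B cells and also transcribed in immature T cells, was at 199.8, 228 and 222 TPM against 0.622, 0.242 and 0.495 TPM (-7.23 ± 0.26). FXYD2, a regulator of the sodium pump, was at 427 ± 11.0 TPM against 1.54 ± 0.614 TPM (-7.42 ± 0.14), and it shares reads with FXYD6-FXYD2. LMO2 and CD1E are described with their families.

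In the opposite direction the largest increases included SPINT2, ACP5, BHLHE23, LGMN, EXD3, CPA4, PRDM16, COL5A3 and GALNT1. SPINT2, an inhibitor of serine proteases (chromosome 19, 38264573 to 38292615), stood at 180.4, 196 and 156 TPM in TALL-1 and 0.203, 0 and 0 TPM in KOPT-K1 (7.38 ± 0.12, adjusted p = 5.4e-17). ACP5, the tartrate-resistant acid phosphatase (chromosome 19, 11574660 to 11578975), was at 166, 159 and 127 TPM in TALL-1, with 1 read in all KOPT-K1 libraries together (7.21 ± 0.12). LGMN, a lysosomal protease, was at 130.0, 121 and 123 TPM against 0.101, 0.281 and 0.117 TPM (6.76 ± 0.14). These are products of the cell surface and lysosome, and transcription factors stood beside them. BHLHE23, a basic helix-loop-helix factor, was at 169 ± 10.6 TPM in TALL-1 and 0.533 ± 0.281 TPM in KOPT-K1 (6.81 ± 0.21). PRDM16, a zinc-finger regulator (chromosome 1, 3069203 to 3438621), was at 71.0, 63.5 and 53.9 TPM in TALL-1 and at 0 reads in KOPT-K1, at least 1461-fold higher. CPA4, a carboxypeptidase, was at 96.2, 96.9 and 72.8 TPM with 2 reads in KOPT-K1 (6.43 ± 0.13). COL5A3, a collagen chain, and GALNT1, which starts O-linked glycans, had 0 reads in KOPT-K1 and 53.9 ± 6.49 and 52.9 ± 5.20 TPM in TALL-1, at least 899.6-fold and 543-fold higher. EXD3, which encodes a protein with an exonuclease domain, was at 101 ± 2.95 against 0.0848 ± 0.0573 TPM (6.56 ± 0.14). In none of these genes did a TALL-1 library overlap a KOPT-K1 library, which is part of the rule that chose them.

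For 4 of them the RefSeq promoter (GRCh38.p14), the 250 bases before the annotated start, is shown because the gene is transcribed in 1 line and silent or nearly so in the other. Capitals mark CpG dinucleotides, the sites at which DNA can be methylated, and the sequences run 5′ to 3′ on the strand of the gene. The first pair, YBX3 (chr12:10723324-10723573, minus strand) and PRSS1 (chr7:142749222-142749471, plus strand), is transcribed in KOPT-K1. The second pair, ACP5 (chr19:11578976-11579225, minus strand) and CPA4 (chr7:130292911-130293160, plus strand), is transcribed in TALL-1.
YBX3: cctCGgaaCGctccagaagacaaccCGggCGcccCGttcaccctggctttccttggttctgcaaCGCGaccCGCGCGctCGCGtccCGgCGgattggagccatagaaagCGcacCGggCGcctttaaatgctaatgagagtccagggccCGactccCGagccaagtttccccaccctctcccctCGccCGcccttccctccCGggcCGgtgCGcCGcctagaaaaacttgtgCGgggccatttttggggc
PRSS1: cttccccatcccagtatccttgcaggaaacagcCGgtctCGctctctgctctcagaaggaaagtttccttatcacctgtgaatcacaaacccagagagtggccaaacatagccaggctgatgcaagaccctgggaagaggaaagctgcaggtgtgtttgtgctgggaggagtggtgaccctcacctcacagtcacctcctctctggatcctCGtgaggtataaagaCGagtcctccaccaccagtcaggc
ACP5: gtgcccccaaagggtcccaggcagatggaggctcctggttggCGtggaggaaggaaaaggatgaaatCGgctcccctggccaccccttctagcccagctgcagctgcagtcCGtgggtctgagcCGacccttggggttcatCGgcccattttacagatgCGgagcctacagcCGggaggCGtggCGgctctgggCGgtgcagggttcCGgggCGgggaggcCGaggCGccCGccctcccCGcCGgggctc
CPA4: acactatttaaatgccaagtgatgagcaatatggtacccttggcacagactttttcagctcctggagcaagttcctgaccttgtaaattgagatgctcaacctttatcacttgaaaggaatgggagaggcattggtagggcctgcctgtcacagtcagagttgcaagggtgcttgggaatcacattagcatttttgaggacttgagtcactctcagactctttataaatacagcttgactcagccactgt
The promoters of YBX3 and ACP5 hold 26 and 17 CpGs, and those of PRSS1 and CPA4 hold 4 and 0. Each pair shown thus has 1 promoter with many more CpGs than the other. The 4 are examples: the promoter of COTL1, transcribed in KOPT-K1, holds 25 CpGs, and that of COL5A3, transcribed in TALL-1, holds 10. Of 27305 RefSeq promoters of this length, 93.6% hold at least 1 CpG, and the median is 11. Over the 11140 tested genes matched to a promoter the median is 20, above the 17 of ACP5. Methylation was not measured.

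More tested TAL1-complex genes were called lower than higher in TALL-1. Of 11 tested genes of the complex and its partners, 2 were called higher and 7 lower, with a median difference of -0.46 against 0.01 over all tested genes. LMO2, the adaptor that bridges TAL1 or LYL1 to LDB1 (chromosome 11, 33858576 to 33892076), stood at 199.6, 189 and 172 TPM in KOPT-K1 and had 0 reads in each TALL-1 library. The difference was -7.55 ± 0.07 (adjusted p = 6.5e-19), at least 1890.5-fold lower. The related adaptor LMO1 was at 0 TPM in both lines. TAL1 (chromosome 1, 47216290 to 47232335) was low in KOPT-K1, at 2.69, 2.80 and 2.49 TPM, and at 0 in TALL-1 (-1.87 ± 0.08, adjusted p = 5.4e-12, at least 60.4-fold lower). LYL1 stood at 5.02, 6.24 and 5.17 TPM in KOPT-K1 and 0.194, 0.189 and 0.0963 TPM in TALL-1 (-2.48 ± 0.10). Every KOPT-K1 library thus held mRNA of both bHLH factors and of LMO2, and no TALL-1 library reached 0.2 TPM of any of the 3. These 3 genes passed the filter through other libraries. Their direction, and with it the count of genes called lower, follows in part from the filter. The partners that both lines expressed differed less. GATA3 was at 68.3 ± 7.90 TPM in KOPT-K1 and 50.4 ± 6.42 TPM in TALL-1 (-0.43 ± 0.08), MYB at 279 ± 9.34 and 171 ± 16.7 TPM (-0.71 ± 0.09), and RUNX1 at 28.7 ± 1.16 and 35.9 ± 1.42 TPM (0.31 ± 0.06). TCF4, an E-protein partner of such factors, went the other way, with 3.01, 2.78 and 3.46 TPM in TALL-1 and 1 read in KOPT-K1 (2.02 ± 0.10).

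Among genes of stem and immature T-ALL, ERG was at 8.83, 9.59 and 7.98 TPM in KOPT-K1 and 0.0143, 0.0140 and 0 TPM in TALL-1 (-3.28 ± 0.08). BCL11A, a zinc-finger factor of early progenitors, was higher in TALL-1, at 14.2, 15.1 and 13.5 against 3.27, 3.89 and 3.78 TPM (1.72 ± 0.13). HHEX had 0 reads in both lines, and CD34 and MEF2C had means of 0.0713 ± 0.0252 and 0.0136 ± 0.00101 TPM in KOPT-K1 and 0.00899 ± 0.0156 and 0.00399 ± 0.00691 TPM in TALL-1. Of 33 homeobox genes that T-ALL can switch on, 12 were tested, 2 were called higher and 5 lower. PBX3 was at 14.4, 17.1 and 16.5 TPM in KOPT-K1 and 0 reads in TALL-1 (at least 154-fold lower), and IRX3 at 10.3 ± 1.56 and 0.0127 ± 0.0220 TPM (-3.47 ± 0.16). PITX1 was higher in TALL-1, at 31.6, 33.3 and 33.7 against 5.13, 5.72 and 5.66 TPM (2.38 ± 0.11). From the HOXB and HOXC clusters HOXB7 stood at 10.1, 14.3 and 15.0 TPM and HOXC4 at 6.56, 5.42 and 4.83 TPM in KOPT-K1, and both had 0 reads in TALL-1.

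NOTCH-pathway genes did not move as 1 block. Both lines expressed NOTCH1 itself (chromosome 9, 136494433 to 136546048), at 119, 124 and 113 TPM in KOPT-K1 and 149, 157 and 146 TPM in TALL-1 (0.34 ± 0.09, adjusted p = 0.0037). NOTCH3 (chromosome 19, 15159038 to 15200995) stood at 384, 396 and 363 TPM in TALL-1 and 35.5, 38.2 and 32.5 TPM in KOPT-K1 (3.39 ± 0.15, adjusted p = 1.9e-11). So the receptors differed in degree: all TALL-1 libraries were above all KOPT-K1 libraries for both genes, by little for NOTCH1 and by far for NOTCH3. LFNG and MFNG, glycosyltransferases that tune the response of NOTCH to its ligands, were lower in TALL-1. LFNG was at 12.9, 11.2 and 10.3 TPM in KOPT-K1 and 0, 0 and 0.0340 TPM in TALL-1 (-3.62 ± 0.10), and MFNG at 104 ± 11.5 and 42.9 ± 1.59 TPM (-1.25 ± 0.13). Of the 24 tested receptors, ligands and processing enzymes, 9 were called higher and 11 lower (median -0.03).

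NOTCH1 target genes split. Of 22 tested, 10 were called higher and 11 lower, 7 and 5 of them by at least 2-fold, with a median of -0.17. The higher group held transcriptional repressors of the HES and HEY family. HES4 (chromosome 1, 998964 to 1000097) stood at 511, 491 and 490.2 TPM in TALL-1 and 17.1, 14.1 and 14.599 TPM in KOPT-K1 (4.94 ± 0.28, adjusted p = 5.6e-10). HES5 was at 22.5, 22.6 and 21.7 TPM in TALL-1 and 0 reads in KOPT-K1 (at least 181-fold higher), and HEY1 at 13.7, 13.4 and 16.4 TPM with 1 read in KOPT-K1 (3.92 ± 0.12). NRARP, which feeds back on NOTCH, was at 16.3, 15.4 and 9.79 TPM against 0.130, 0.193 and 0.10 TPM (3.67 ± 0.18). DTX1, an E3 ligase and common read-out of NOTCH activity, was high in both lines, at 378, 345 and 313 TPM in KOPT-K1 and 271, 266 and 285 TPM in TALL-1. Its difference of -0.33 ± 0.13 was called at an adjusted p of 0.034, a call lost when either of 2 TALL-1 libraries (replicates 1 and 2, adjusted p = 0.0745 and 0.0848) or of 2 KOPT-K1 libraries (replicates 1 and 2, 0.127 and 0.0696) was left out. It was also lost with a pseudocount of 0.1 TPM (0.122) and with no filter on low values (0.0558). MYC, a target that drives growth, was lower in TALL-1 (111 ± 19.0 against 186 ± 23.7 TPM, -0.75 ± 0.15). IL7R, another target, was not called (23.4 ± 1.11 against 23.5 ± 0.103 TPM, -0.00 ± 0.13, adjusted p = 1).

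**Figure D2:**
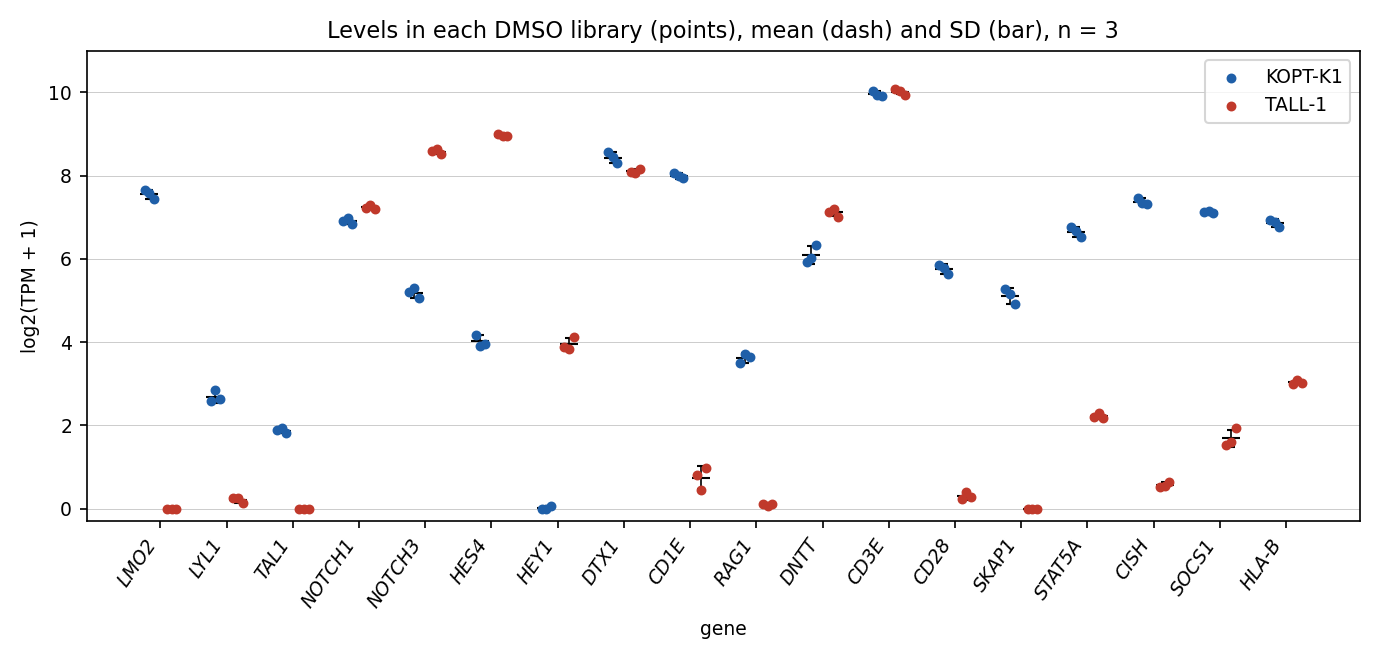
Each point is 1 DMSO library, with its level as log2(TPM + 1) on the y axis, for 18 genes along the x axis; dashes are means and bars SD (n = 3). The points of the 2 lines overlap for CD3E and separate for the 17 others, with LMO2, TAL1 and SKAP1 at 0 in all 3 TALL-1 libraries and HES4 and NOTCH3 higher in TALL-1.

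Genes of the cortical thymocyte were mostly lower in TALL-1, with exceptions in both size and direction. Of 23 tested, 7 were called higher and 13 lower, 4 and 10 by at least 2-fold, with a median of -0.77. CD1 molecules present lipids and mark cortical cells. CD1E (chromosome 1, 158353894 to 158357553) stood at 267, 253 and 244 TPM in KOPT-K1 and 0.737, 0.359 and 0.977 TPM in TALL-1 (-7.25 ± 0.33, adjusted p = 5.1e-11). CD1B was at 102, 92.7 and 89.1 TPM against 1.14, 1.20 and 0.824 TPM (-5.54 ± 0.34), and CD1C at 54.9, 51.7 and 53.6 TPM against 0.356, 0.433 and 0.221 TPM (-5.35 ± 0.24). CD1A, the member used to stage T-ALL, kept more of its level in TALL-1: 31.4, 31.4 and 30.4 TPM against 56.8, 60.9 and 56.0 TPM in KOPT-K1. Its groups did not overlap, but the difference of -0.88 ± 0.43 was not called (adjusted p = 0.082). The spread in this fit is estimated over all 6 groups of the 3 lines. It was called when only the DMSO libraries of the 2 lines were fitted (adjusted p = 4.79e-06).

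The recombinase genes RAG1 and RAG2, which cut receptor loci, were at 10.2, 12.1 and 11.5 and 3.89, 4.52 and 5.20 TPM in KOPT-K1. In TALL-1 they stood at 0.0802, 0.0469 and 0.0798 and 0.0391, 0 and 0.0389 TPM (-3.52 ± 0.11 and -2.43 ± 0.15). DNTT, the polymerase that adds bases at the cut ends, was higher in TALL-1, at 139, 147 and 128 against 60.0, 64.2 and 79.2 TPM (1.02 ± 0.30, adjusted p = 0.0069). The cutting and the end-adding enzymes thus differed in opposite directions. The surface coreceptors differed little. CD4 was at 10.2, 11.0 and 12.1 TPM in KOPT-K1 and 12.2, 12.9 and 10.4 TPM in TALL-1 with overlapping groups (difference 0.08 ± 0.17, adjusted p = 0.69), and CD8A at 63.1, 61.2 and 62.2 and 53.1, 55.6 and 52.0 TPM. The small CD8A difference (-0.21, adjusted p = 0.022) was not called without TALL-1 replicate 1, TALL-1 replicate 3 or KOPT-K1 replicate 1 (0.0548, 0.0676 and 0.0583). Among other T-cell surface markers CD7 was higher in TALL-1 (268, 249 and 213 against 115, 114 and 107 TPM, 1.11 ± 0.11), CD5 was lower (38.8, 37.1 and 34.5 against 124, 115 and 120.4 TPM, -1.68 ± 0.08), and CD2 overlapped (112, 123 and 106 against 128, 121 and 106 TPM, adjusted p = 0.76).

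Of 26 tested transcription factors of the T lineage, 8 were called higher and 11 lower (median 0.04), 2 and 3 by at least 2-fold. TCF7 was at 145 ± 1.79 TPM in KOPT-K1 and 162 ± 13.8 TPM in TALL-1 and was not called (adjusted p = 0.25). Its partner LEF1 was lower in TALL-1 (137 ± 6.61 against 235 ± 5.37 TPM, -0.77 ± 0.07), and BCL11B, which commits cells to the T lineage, was higher (58.5 ± 1.71 against 36.2 ± 0.687 TPM, 0.68 ± 0.08). The 3 members called at least 2-fold lower were KLF2, IKZF3 and EOMES, and 2 were called at least 2-fold higher. KLF2, which controls exit from the thymus, was at 10.6, 9.49 and 8.06 TPM in KOPT-K1 and 0.0391, 0.0381 and 0 TPM in TALL-1 (-3.33 ± 0.14). IKZF3 was at 7.79 ± 0.406 against 0.527 ± 0.106 TPM (-2.53 ± 0.10) and EOMES at 7.39 ± 0.324 against 1.64 ± 0.344 TPM (-1.68 ± 0.13).

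Many T-cell receptor signalling genes were lower in TALL-1 at several steps. Of 49 tested, 13 were called higher and 27 lower, 1 and 17 by at least 2-fold, with a median of -0.46. At the receptor, CD247, the zeta chain, was at 237, 240.4 and 244 TPM in KOPT-K1 and 63.3, 60.9 and 63.2 TPM in TALL-1 (-1.93 ± 0.05), while CD3D was at 1335, 1288 and 1249 and 988, 1019 and 986 TPM (-0.37 ± 0.07). Co-stimulation showed the largest gaps. CD28 (chromosome 2, 203706482 to 203738912) stood at 57.2, 53.7 and 48.5 TPM against 0.173, 0.318 and 0.210 TPM (-5.45 ± 0.18, adjusted p = 2.7e-13), and its relative ICOS at 115, 115 and 115 TPM against 2.18, 2.33 and 1.54 TPM (-5.27 ± 0.15). Downstream, the adaptor SKAP1 was at 37.8, 34.4 and 29.1 TPM in KOPT-K1 and 0 reads in TALL-1, at least 255-fold lower. RASGRP1, which links the receptor to RAS, was at 49.3 ± 2.42 TPM against 0.582 ± 0.293 TPM (-5.00 ± 0.15).

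**Figure D3:**
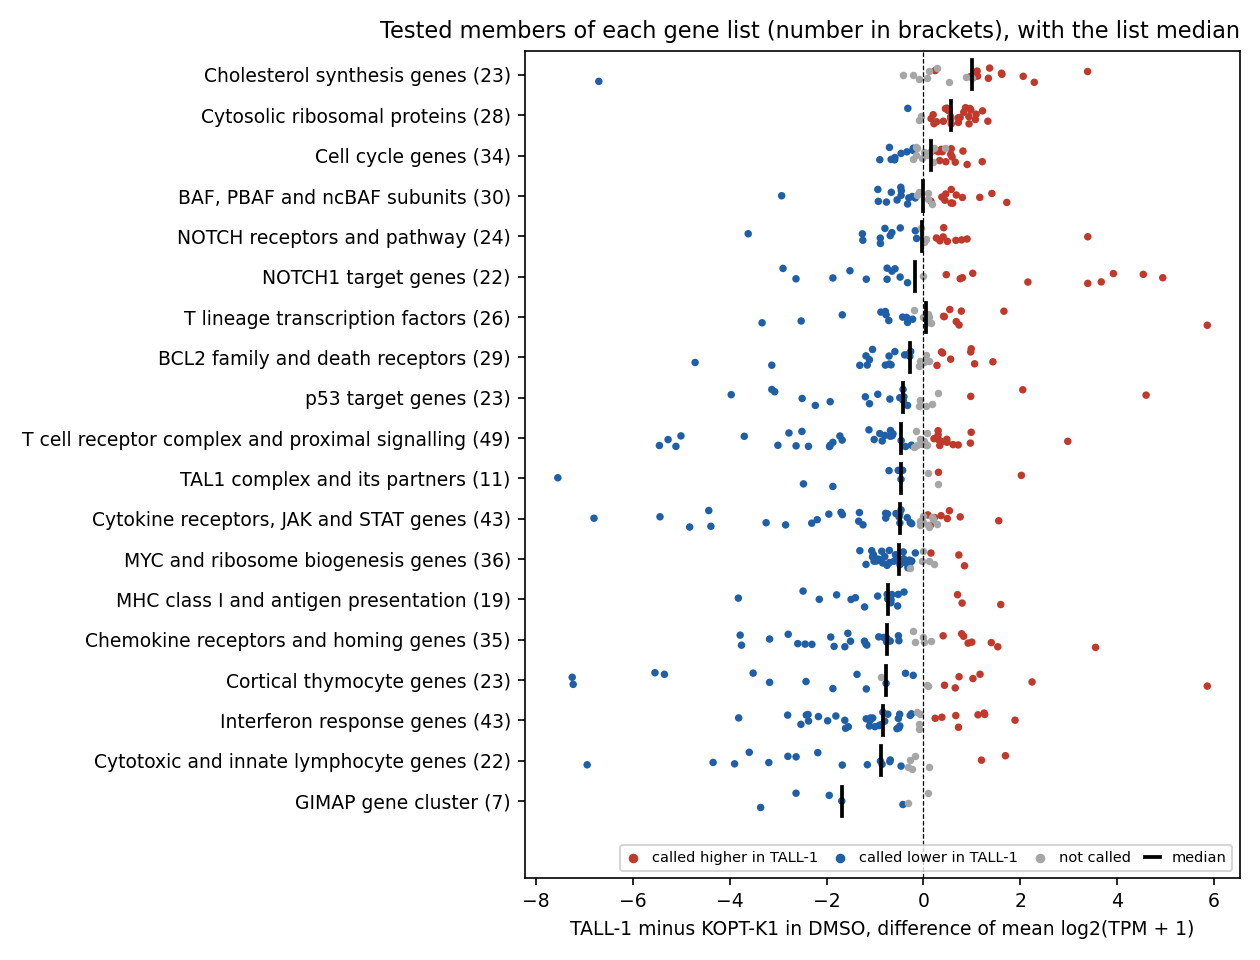
Each point is a tested member of a gene list, placed by the difference TALL-1 minus KOPT-K1 in mean log2(TPM + 1) (x axis), with a black bar at the list's median and the number tested in brackets, for 19 of the 39 lists. Medians of the lists drawn run from 1.01 for cholesterol synthesis to -1.69 for the GIMAP cluster, and most lists have members on both sides of 0.

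In the JAK-STAT pathway a receptor-bound kinase phosphorylates a STAT factor that then enters the nucleus, and STAT5A and feedback inhibitors of the pathway were lower in TALL-1. Of 43 tested genes, 8 were called higher and 26 lower, 1 and 15 by at least 2-fold, with a median of -0.49. STAT5A (chromosome 17, 42287439 to 42311943) stood at 107, 100.1 and 91.0 TPM in KOPT-K1 and 3.56, 3.87 and 3.49 TPM in TALL-1 (-4.43 ± 0.14, adjusted p = 2e-13). CISH, an inhibitor that STAT5 is known to induce (chromosome 3, 50606489 to 50611774), was at 177, 161 and 158 TPM against 0.434, 0.465 and 0.561 TPM (-6.80 ± 0.08, adjusted p = 2.9e-18). SOCS1 was at 139, 141 and 137 TPM against 1.90, 2.03 and 2.79 TPM (-5.44 ± 0.16), and SOCS2 at 32.0, 33.1 and 33.1 TPM against 0.238, 0.178 and 0.145 TPM (-4.83 ± 0.07). STAT5A and these 3 inhibitors were each low in all TALL-1 libraries, whereas the receptor chain IL7R had overlapping groups, with 23.8, 22.2 and 24.4 TPM in TALL-1 and 23.4, 23.6 and 23.5 TPM in KOPT-K1. The cytokine OSM was at 60.1, 53.3 and 41.9 TPM in KOPT-K1 and 0 reads in TALL-1, at least 403-fold lower.

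Antigen presentation and interferon genes were mostly lower in TALL-1 as well. Of 19 tested MHC class I genes, 3 were called higher and 16 lower (median -0.74). HLA-B stood at 122, 117 and 108 TPM in KOPT-K1 and 7.02, 7.55 and 7.14 TPM in TALL-1 (-3.82 ± 0.18, adjusted p = 3.3e-11), and HLA-C at 173, 175 and 165 TPM against 30.0, 31.1 and 28.2 TPM (-2.49 ± 0.04). HLA genes differ in sequence between people, and how that touched these counts was not tested. The transporter TAP1 (16.0 ± 0.858 against 3.90 ± 0.193 TPM, -1.79 ± 0.09) and NLRC5, a transactivator of class I genes (13.6 ± 0.403 against 2.30 ± 0.348 TPM, -2.15 ± 0.08), were also lower. Of 43 tested interferon response genes, 8 were called higher and 31 lower, 4 and 19 by at least 2-fold, with a median of -0.84. GBP1, a GTPase of cell defence, was at 44.5, 48.8 and 56.3 TPM against 2.15, 2.16 and 3.66 TPM (-3.82 ± 0.19), RSAD2 at 14.4 ± 1.05 against 1.21 ± 0.259 TPM (-2.80 ± 0.15), and CMPK2 at 25.6 ± 1.88 against 3.97 ± 0.232 TPM (-2.42 ± 0.07). NF-kB factors and targets had 3 of 23 higher and 17 lower, with a median of -0.52 that was -0.63 without TALL-1 replicate 3. NFKB1, the precursor of the p50 subunit, was at 71.8, 69.1 and 65.3 TPM against 9.83, 9.58 and 11.7 TPM (-2.62 ± 0.14), and the cytokine gene LTA at 5.45 ± 0.250 against 0.0415 ± 0.0179 TPM (-2.63 ± 0.08).

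Homing receptors, GIMAP genes and cytotoxic genes made up a further set with many lower members. Of 35 tested chemokine and homing genes, 8 were called higher and 22 lower (median -0.76). SELPLG, the ligand of P-selectin, was at 142, 141 and 134 TPM in KOPT-K1 and 8.98, 10.1 and 8.43 TPM in TALL-1 (-3.79 ± 0.12). S1PR1, which guides lymphocytes out of tissue, was at 32.4, 30.2 and 27.5 TPM against 1.60, 1.17 and 1.12 TPM (-3.76 ± 0.20), and CCR9, a thymocyte chemokine receptor, at 23.3, 25.3 and 25.1 TPM against 1.60, 2.01 and 1.87 TPM (-3.18 ± 0.13). The relative S1PR5 went the other way, with 10.3, 9.65 and 12.5 TPM in TALL-1 and 0 reads in KOPT-K1 (at least 71.7-fold higher). GIMAP genes encode GTPases of lymphocyte survival that lie side by side on 1 chromosome. Of 7 tested, 0 were called higher and 5 lower, with a median of -1.69 that was -1.56 without TALL-1 replicate 3. GIMAP4 was at 132, 134 and 126 TPM against 12.1, 14.0 and 9.61 TPM (-3.36 ± 0.13) and GIMAP5 at 352, 348 and 317 TPM against 58.7, 59.5 and 44.4 TPM (-2.63 ± 0.16). Among 22 tested cytotoxic genes 2 were called higher and 15 lower (median -0.87), with NKG7 at 232, 220.0 and 199.5 TPM against 15.3, 15.7 and 10.4 TPM (-3.90 ± 0.16) and the protease GZMA at 22.7 ± 3.12 against 0.162 ± 0.0675 TPM (-4.34 ± 0.17).

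Cell-cycle genes differed little in size: of 34 tested, 14 were called higher and 9 lower, 1 and 0 by at least 2-fold, with a median of 0.16. The share past 2-fold was below that over all tested genes. NUSAP1, a spindle protein, was the member past 2-fold (300.3 ± 42.6 against 128 ± 11.7 TPM, 1.21 ± 0.13). Of 32 tested cell-cycle regulators and tumour suppressors 15 were called higher and 14 lower, 4 and 4 by at least 2-fold (12.5% each), with a median of 0.07. The inhibitor CDKN1A (p21) stood at 15.4, 21.8 and 17.3 TPM in KOPT-K1 and 0.234, 0.380 and 0.0388 TPM in TALL-1 (-3.97 ± 0.28, adjusted p = 4.2e-09), and CCND2, a G1 cyclin, at 10.6, 10.4 and 8.04 TPM against 0 reads (at least 192-fold lower). Genes that T-ALL often deletes had mRNA in both lines. CDKN2A was at 15.5 ± 0.837 TPM in KOPT-K1 and 20.9 ± 1.72 TPM in TALL-1 (0.41 ± 0.07), and its neighbour MTAP at 42.0 ± 1.49 and 38.6 ± 2.24 TPM (-0.12, not called, adjusted p = 0.25). PHF6, an X-linked gene often mutated in T-ALL, was at 39.5, 42.6 and 43.8 TPM in KOPT-K1 and 5.29, 4.78 and 5.26 TPM in TALL-1 (-2.81 ± 0.08, adjusted p = 2.5e-14). The zinc-finger gene WT1 was at 13.9 ± 0.132 against 0.477 ± 0.0839 TPM (-3.34 ± 0.06).

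More genes of the p53 response and of cell death were lower than higher in TALL-1. Of 23 tested p53 targets, 3 were called higher and 15 lower (median -0.42). TIGAR had 0 reads in TALL-1 against 7.16, 7.25 and 7.84 TPM (at least 186-fold lower), and the death receptor FAS was at 8.78 ± 0.539 against 0.115 ± 0.0512 TPM (-3.13 ± 0.10). GADD45A, a stress-response gene, was the largest exception, at 181, 176 and 161 TPM in TALL-1 and 5.66, 6.60 and 6.26 TPM in KOPT-K1 (4.60 ± 0.09, adjusted p = 1e-15). Of 29 tested BCL2-family and death-receptor genes, 8 were called higher and 16 lower (median -0.28). The killer protein gene BIK was at 39.1, 45.7 and 42.4 TPM in KOPT-K1 and 0.811, 0.564 and 0.576 TPM in TALL-1 (-4.72 ± 0.17), and BID at 112 ± 2.41 against 44.5 ± 2.72 TPM (-1.32 ± 0.07). Among survival genes MCL1 was higher in TALL-1 (132 ± 2.67 against 89.4 ± 3.64 TPM, 0.56 ± 0.04), BCL2 lower (23.5 ± 0.935 against 28.7 ± 0.781 TPM, -0.28 ± 0.07), and BCL2L1 had overlapping groups (208 ± 9.88 against 202 ± 6.38 TPM, adjusted p = 0.59).

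Ribosome genes split by function. Genes that assemble ribosomes, many of them MYC targets, had 3 of 36 called higher and 28 lower (median -0.51). NOP16 was at 197 ± 24.3 TPM in KOPT-K1 and 78.3 ± 1.86 TPM in TALL-1 (-1.31 ± 0.08), RRP12 at 75.6 ± 9.48 against 32.5 ± 2.40 TPM (-1.19 ± 0.10), and NOP2 at 143 ± 10.2 against 68.2 ± 2.28 TPM (-1.05 ± 0.07). Structural proteins of the cytosolic ribosome went the other way, with 25 of 28 higher and 1 lower (median 0.57). RPS27 was at 4813, 4942 and 4324 TPM in TALL-1 and 1990.4, 1993 and 2053 TPM in KOPT-K1 (1.22 ± 0.06), and RPS23 at 532 ± 12.6 in KOPT-K1 and 1340.3 ± 60.2 TPM in TALL-1 (1.33 ± 0.05). RPL8 was the 1 called lower (-0.32 ± 0.05). The 28 genes summed to 71051 to 76519 TPM in TALL-1 and 50481 to 51693 TPM in KOPT-K1. TPM of a library add up to 1000000, so a larger share for these genes comes with a smaller share for others. Rescaling the libraries by their median ratio moved differences by -0.03 at the median. Ribosomal protein genes have many processed pseudogenes that can share their reads, so single members are uncertain.

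Cholesterol synthesis genes were mostly higher in TALL-1: of 23 tested, 13 were called higher and 1 lower, with a median of 1.01. CYP51A1, a sterol demethylase, was at 158, 131 and 138 TPM in TALL-1 and 10.5, 13.9 and 13.8 TPM in KOPT-K1 (3.39 ± 0.45, adjusted p = 8.8e-06). HMGCS1, which acts near the start of the pathway, was at 398, 316 and 333 against 64.5, 70.2 and 76.7 TPM (2.29 ± 0.79, adjusted p = 0.018). Of 31 tested glycolysis and hypoxia genes, 12 were called higher and 18 lower (median -0.37). VEGFA, a growth factor of vessels, was at 234, 235 and 187 TPM in TALL-1 and 13.5, 13.7 and 11.9 TPM in KOPT-K1 (3.96 ± 0.13), whereas BNIP3, a mitophagy gene, was at 33.4, 38.7 and 44.1 TPM in KOPT-K1 and 0.405, 0.789 and 0.738 TPM in TALL-1 (-4.59 ± 0.12).

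Genes that handle leukaemia drugs had 13 of 35 called higher and 13 called lower (median 0.04). GGH, which removes the glutamate tail that keeps methotrexate in the cell, was at 42.1, 41.2 and 45.0 TPM in KOPT-K1 and 0 reads in TALL-1, at least 301-fold lower. The folate carrier gene SLC46A1 was at 7.27 ± 0.676 against 0.0869 ± 0.0491 TPM (-2.92 ± 0.09), and the nucleoside carrier gene SLC29A2 was higher in TALL-1 (25.2, 22.4 and 25.0 against 2.85, 2.2 and 2.36 TPM, 2.86 ± 0.11). In the RAS and PI3K pathways 16 of 41 were called higher and 22 lower (median -0.19). RASA3, a brake on RAS, was at 20.5, 21.0 and 24.5 TPM in KOPT-K1 and 0 reads in TALL-1 (at least 688-fold lower). DUSP6, a phosphatase induced by ERK, was at 215, 189 and 164 TPM against 13.3, 12.0 and 14.1 TPM (-3.75 ± 0.25), and the AKT phosphatase gene PHLPP1 was higher in TALL-1 (16.1, 15.0 and 17.2 against 0.295, 0.274 and 0.228 TPM, 3.76 ± 0.12).

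The complex targeted by BRM014 was expressed in both lines. Of 30 tested BAF, PBAF and ncBAF subunits, 12 were called higher and 13 lower (median -0.00). The ATPase SMARCA4 was at 147, 155 and 146 TPM in KOPT-K1 and 209, 204 and 204 TPM in TALL-1 (0.46 ± 0.05), and its paralogue SMARCA2 at 10.4, 11.6 and 12.0 and 13.5, 11.9 and 13.4 TPM (0.18, adjusted p = 0.053). The cBAF subunit ARID1A was at 93.6 ± 3.95 and 143 ± 5.17 TPM (0.60 ± 0.05), and ARID1B at 28.0 ± 0.817 and 31.2 ± 0.612 TPM (0.15, adjusted p = 0.021, which became 0.0688 without TALL-1 replicate 2 and 0.0787 without KOPT-K1 replicate 3). DPF3, an alternative reader subunit, showed the largest gap of the list, at 13.7, 12.0 and 12.1 TPM in KOPT-K1 and 0.794, 0.753 and 0.791 TPM in TALL-1 (-2.93 ± 0.12). Among 41 Polycomb and DNA methylation genes 12 were called higher and 18 lower (median -0.05). TET2, which oxidises methylcytosine, was at 4.97, 5.19 and 4.61 TPM in KOPT-K1 and 0.0137, 0 and 0.0136 TPM in TALL-1 (-2.55 ± 0.08, adjusted p = 8.9e-14), 4 reads against 1912. EPOP, a Polycomb partner, was higher in TALL-1 (49.4, 51.2 and 46.2 against 6.43, 5.67 and 4.67 TPM, 2.93 ± 0.13).

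Several fetal and germline genes were expressed in KOPT-K1 and at or near 0 in TALL-1. Of 48 cancer-testis and germline genes in the table, 7 were tested, 1 was called higher in TALL-1 and 4 lower. LIN28B, an RNA-binding protein of fetal cells (chromosome 6, 104937026 to 105083332), stood at 48.0, 44.9 and 49.2 TPM in KOPT-K1, with 1 read in TALL-1 (-5.58 ± 0.05, adjusted p = 5.8e-19). GTSF1 was at 21.2, 22.8 and 22.4 TPM with 1 read in TALL-1, and PAGE5 at 26.3, 26.9 and 28.3 TPM with 0 reads (at least 62.5-fold lower). The imprinted non-coding gene H19 was at 71.8, 67.4 and 57.8 TPM in KOPT-K1 with 1 read in TALL-1 (-6.03 ± 0.11), and IGF2BP3, an RNA-binding protein of fetal tissue, at 6.98 ± 0.283 against 0.161 ± 0.0158 TPM (-2.78 ± 0.07). Of 11 tested oncofetal genes 2 were called higher and 7 lower (median -1.69). The genes named in this paragraph were under 1 TPM in every TALL-1 DMSO library and passed the filter through other libraries. The direction of the counts of both lists thus follows in part from the filter.

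Markers of other blood and tissue cells were few. Of 12 B-cell markers in the table, 4 passed the filter and all 4 were lower in TALL-1: they summed, with the untested ones, to 16.3 to 26.8 TPM in TALL-1 and 307 to 327 TPM in KOPT-K1. CD79B, IGLL1 and VPREB1 were under 1 TPM in every TALL-1 DMSO library and passed the filter through other libraries. Their shared direction thus follows in part from the filter. CD79A, a B-cell receptor chain also found in some T-ALL, was at 91.5, 87.5 and 85.4 TPM in KOPT-K1 and 24.4, 25.9 and 15.2 TPM in TALL-1 (-2.00 ± 0.18), and CD79B at 11.2 ± 2.17 against 0.0286 ± 0.0496 TPM (-3.55 ± 0.11). The 8 untested B-cell markers did not exceed 1.63 TPM in any library of the 2 lines. VPREB1, the other surrogate light chain gene, was at 1.42, 0.989 and 1.85 TPM in KOPT-K1 and 0 TPM in TALL-1 (-1.26 ± 0.12). Of 16 myeloid markers 3 were tested, and the list summed to 60.3 to 63.6 TPM in TALL-1 and 60.3 to 64.2 TPM in KOPT-K1. Of 16 erythroid and megakaryocyte markers 2 were tested, both of them also expressed in dividing leukaemia cells: the iron receptor TFRC (502 ± 21.6 TPM in KOPT-K1, 192 ± 5.62 TPM in TALL-1, -1.38 ± 0.06) and EPOR (2.42 ± 0.147 and 6.55 ± 0.587 TPM, 1.14 ± 0.10). The untested markers of these lists did not exceed 0.46 TPM (myeloid) and 0.32 TPM (erythroid). Among 13 epithelial and fibroblast markers 4 were tested. VIM, an intermediate filament also present in leukocytes, was lower in TALL-1 (179, 171 and 211 against 1278, 1218 and 1131 TPM, -2.69 ± 0.07), and PDGFRB, a growth factor receptor, was at 8.57, 7.52 and 7.44 TPM in TALL-1 with 2 reads in KOPT-K1 (3.13 ± 0.07).

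The most abundant nuclear mRNAs were alike in kind but not always in level. TMSB4X, which binds actin monomers, was at 7654, 7424 and 7412 TPM in KOPT-K1 and 6551, 7071 and 6436 TPM in TALL-1 (-0.17, adjusted p = 0.036). Leaving out any DMSO library but TALL-1 replicate 2 took that adjusted p to 0.0591 to 0.115. TUBA1B, a tubulin, had overlapping groups (5262 ± 97.2 and 5068 ± 105 TPM, adjusted p = 0.4). GAPDH was lower in TALL-1 (4348 ± 198 against 7119 ± 230.2 TPM, -0.71 ± 0.07), HSPA8, a chaperone, lower (3095 ± 243 against 5506 ± 573 TPM, -0.83 ± 0.24), and EEF1A1, an elongation factor, higher (7805 ± 517 against 4686 ± 105 TPM, 0.73 ± 0.08).

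Many genes were transcribed in 1 line and at or near 0 in the other. With a mean of at least 5 TPM in 1 line and under 0.1 TPM in every library of the other, 224 genes (183 protein-coding) were found for KOPT-K1 and 77 (56 protein-coding) for TALL-1. The number of genes depends on these limits. Requiring a mean of at least 1 TPM gave 558 and 241, a mean of at least 10 TPM gave 144 and 40, and allowing up to 0.5 TPM in the other line gave 339 and 149. In 132 of the 224 and 39 of the 77 the other line had 0 reads in all 3 libraries. In BRM014, 202 of the 224 stayed under 0.1 TPM in every TALL-1 library and 65 of the 77 in every KOPT-K1 library. CCRF-CEM held a mean of at least 1 TPM of 142 of the 224 and of 36 of the 77. With wider limits, a mean of at least 1 TPM in 1 line and a mean under 0.1 TPM in the other, some such genes were neighbours among the genes of at least 1 TPM in either line. IRX3, CRNDE, IRX5 and GNAO1 (chromosome 16, 54283304 to 56357444) were a run of 4 expressed in KOPT-K1, and CPA4, CPA5 and CPA1 with 2 non-coding loci (chromosome 7, 130293161 to 130388108) a run of 5 expressed in TALL-1. PRDM16 lay in a run of 4 with PRDM16-DT and MEGF6 (chromosome 1, 3059617 to 3624786). Genes of these runs other than IRX3, CPA4 and PRDM16 were chosen after their values were seen. Only 150 of the 224 and 56 of the 77 had a promoter in the RefSeq table, so a comparison of promoter CpG content between these sets and all genes is void.

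Differences also varied by chromosome. Genes of chromosome 12 had a median difference of -0.47 over 777 tested genes, with 61.4% called lower and 12.7% higher in TALL-1. Chromosomes 10 and 3 followed at -0.30 and -0.26. At the other end stood chromosomes 13 and 14, with medians of 0.37 and 0.34, and 56.7% and 57.8% of their tested genes called higher. In the BRM014 libraries these medians were -0.45 for chromosome 12, 0.37 for chromosome 13 and 0.33 for chromosome 14. Set against CCRF-CEM in DMSO, chromosome 12 genes had a median of -0.33 in TALL-1 and 0.18 in KOPT-K1, and chromosome 13 genes 0.35 and -0.03. DNA copy number was not measured here.

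**Figure D4:**
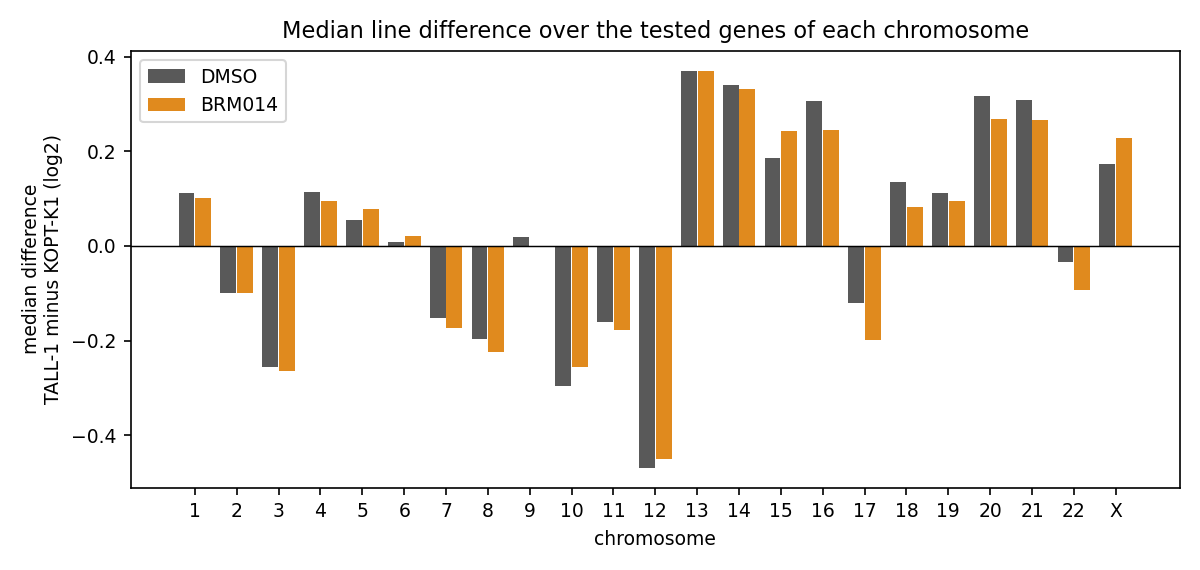
Bars give the median difference TALL-1 minus KOPT-K1 in log2(TPM + 1) over the tested genes of each chromosome (x axis), in DMSO (grey) and BRM014 (orange) libraries. Chromosome 12 is lowest, at -0.47 in DMSO and -0.45 in BRM014, and chromosome 13 highest, at 0.37 in both.

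The line difference was then read in the BRM014 libraries, which are other libraries of the same 2 lines. Whether DMSO and BRM014 libraries of the same number shared a culture was not tested. Some genes ranked alike by number: CD7 in TALL-1 was at 268, 249 and 213 TPM in DMSO and 123, 113 and 95.2 TPM in BRM014. The 2 sets are therefore not read as separate cultures. Both comparisons come from the same fit and use the same estimate of each gene's spread, so their calls are not independent. There 11741 genes (72.3%) were called, 5851 (36%) higher in TALL-1 and 5890 (36.3%) lower. Of the 1626 genes at least 2-fold higher in DMSO, 1529 (94.0%) were called in the same direction in BRM014, 4 in the opposite one and 93 not. Of the 1820 at least 2-fold lower, 1770 (97.3%) were called the same way, 5 the opposite way and 45 not. Across the 16241 genes the differences in the 2 sets had a Pearson correlation of 0.92 and a Spearman correlation of 0.88, given as a description since genes are not independent. YBX3 was at 254 ± 16.3 TPM in KOPT-K1 and 0.0183 ± 0.0317 TPM in TALL-1 in BRM014, LMO2 at 136 ± 8.30 and 0.00999 ± 0.0173 TPM, and SPINT2 at 0.328 ± 0.0559 and 154 ± 5.22 TPM.

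**Figure D5:**
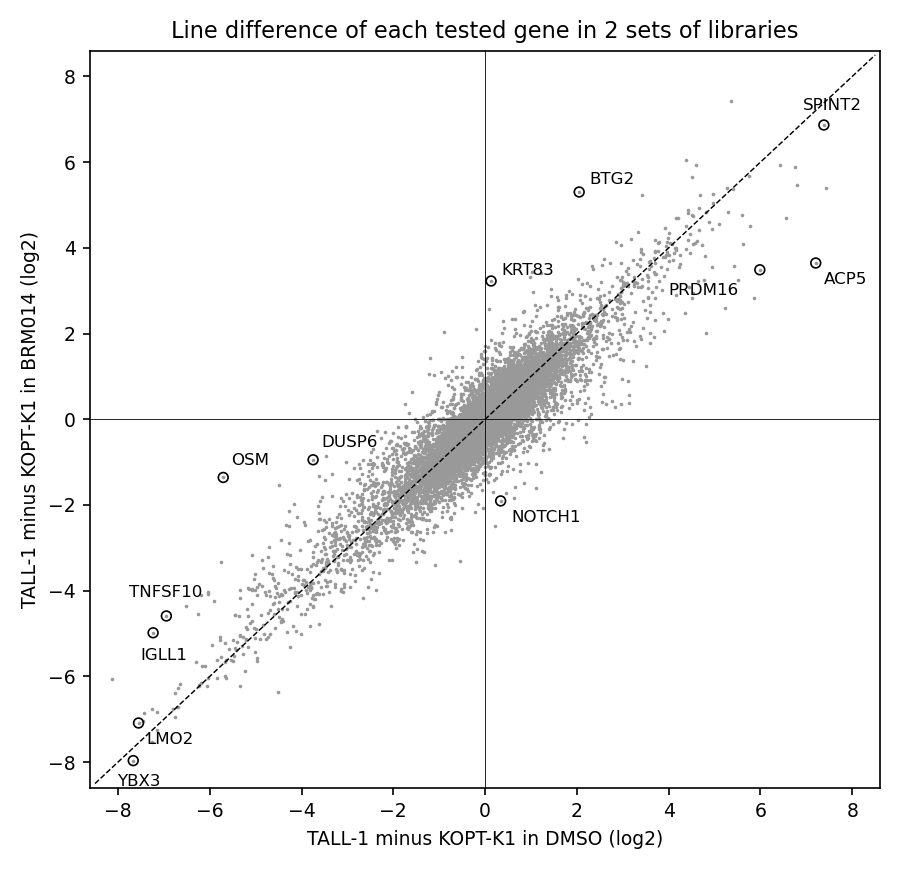
Each point is a tested gene, placed by its difference TALL-1 minus KOPT-K1 in DMSO (x axis) and in BRM014 (y axis), both on the log2(TPM + 1) scale; the dashed line marks equal differences. Most genes lie along it (Pearson correlation 0.92), and circled genes such as ACP5, OSM and BTG2 lie away from it.

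The difference between these 2 line differences was called in 3472 genes (21.4%), 1647 (10.1%) with a higher value in BRM014 and 1825 (11.2%) with a lower one. It was called and at least 2-fold on the log2(TPM + 1) scale in 561 (3.45%). Among the genes with the largest shifts was ACP5, which in TALL-1 was at 151 ± 20.9 TPM in DMSO and 12.3 ± 2.06 TPM in BRM014 (shift -3.56 ± 0.18). PLEKHG1 was at 27.4 ± 2.21 and 3.08 ± 0.389 TPM in TALL-1, and at 0.00861 ± 0.00746 and 0 TPM in KOPT-K1 (shift -2.79 ± 0.12). In both the excess in TALL-1 was smaller in BRM014. For OSM the level in KOPT-K1 was the one that differed. KOPT-K1 was at 51.8 ± 9.19 TPM in DMSO and 1.60 ± 0.565 TPM in BRM014, and TALL-1 at 0 in both (shift 4.35 ± 0.21). The antiproliferative gene BTG2 was at 31.5 ± 2.01 TPM in TALL-1 in DMSO and 290.1 ± 23.2 TPM in BRM014, against 6.86 ± 0.725 and 6.37 ± 0.616 TPM in KOPT-K1 (shift 3.25 ± 0.12, adjusted p = 1.9e-10). The keratin gene KRT83 was at 0.0963 ± 0.0653 TPM in TALL-1 in DMSO and 8.37 ± 0.331 TPM in BRM014, and at 0 TPM in KOPT-K1 in DMSO (shift 3.10 ± 0.16). NOTCH1 was slightly higher in TALL-1 in DMSO (0.34) and lower in BRM014 (-1.91, shift -2.24 ± 0.13).

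CCRF-CEM, measured in the same table, did not side with 1 of the 2 lines throughout. The 2 contrasts with it share its libraries, so their values are given side by side. In all, 67.6% of tested genes were called between TALL-1 and CCRF-CEM and 62.5% between KOPT-K1 and CCRF-CEM. LMO2 was at 4.99 ± 0.392 TPM in CCRF-CEM (KOPT-K1 minus CCRF-CEM 4.97, TALL-1 minus CCRF-CEM -2.58 on the log2 scale). TAL1 was at 13.2 ± 0.911 TPM in CCRF-CEM (KOPT-K1 minus CCRF-CEM -1.95, TALL-1 minus CCRF-CEM -3.82). RAG1 was higher in CCRF-CEM than in either line, at 299 ± 63.5 TPM (KOPT-K1 minus CCRF-CEM -4.59, adjusted p = 8.9e-15; TALL-1 minus CCRF-CEM -8.11, adjusted p = 1e-17). NOTCH3 and DTX1 were lower there than in either line, at 7.78 ± 1.95 TPM (KOPT-K1 minus CCRF-CEM 2.07, TALL-1 minus CCRF-CEM 5.46) and 4.25 ± 0.687 TPM (6.05 and 5.72). CISH was at 2.70 ± 0.330 TPM (5.49 for KOPT-K1 and -1.31 for TALL-1), nearer TALL-1, while STAT5A was at 102 ± 13.2 TPM (-0.03 and -4.46), nearer KOPT-K1. SPINT2 was at 149 ± 25.8 TPM and GALNT1 at 38.8 ± 3.42 TPM, both near TALL-1, while YBX3 at 355 ± 21.2 TPM and PSAT1 at 239.7 ± 60.7 TPM were nearer KOPT-K1. The tumour suppressor pair CDKN2A and MTAP stood at 0.315 ± 0.0727 and 0.606 ± 0.232 TPM in CCRF-CEM, below both other lines.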

How the data were processed

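Poly(A) RNA of the 3 lines was extracted with RNeasy columns and made into libraries with the NEBNext Ultra II Directional kit, per the labels' protocols. The submitters' processing notes name HISAT2 2.2.1, featureCounts 2.0.3 and hg38, with no settings. The authors deposited TPM and a gene length for 38557 genes. TPM times length fell on whole multiples of 1 step per library for 99.89% or more of genes above 0 in the 6 DMSO libraries (within 0.01 read), and these multiples were taken as reads for depth, floors and a check with limma-voom.

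The 16241 genes that reached 1 TPM in 3 or more of the table's 18 libraries entered a limma 3.58.1 fit of log2(TPM + 1) in R 4.3.3 (eBayes with trend, robust) over the table's 6 groups, with 12 residual degrees of freedom. On simulated data of 14381 genes the fit found 37 of 50 genes changed 1.5-fold and 50 of 50 at 2-fold, and called 10 of 14181 unchanged genes. The simulation drew independent libraries from KOPT-K1 means with a fixed spread, and changed only genes of at least 5 TPM. It held no library that stood apart as TALL-1 replicate 3 did, so its rates need not hold for the real libraries. Replicate numbers did not pair TALL-1 libraries with KOPT-K1 libraries. Pairing of DMSO with BRM014 libraries within a line was not tested and not modelled.

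The comparison, lists, tests and alternatives were chosen with earlier results of these data known. Genes were named by rule: the 10 largest called differences each way among protein-coding genes of at least 5 TPM without overlap, 3 each way for the shift in BRM014, the 10 most abundant per line, up to 4 per list by size of difference, and a short list named in any case. Gene positions and promoters came from RefSeq (GRCh38.p14), joined by symbol for 15187 of the tested genes. Alternatives were other pseudocounts, filters, scalings, fits and left-out libraries. Protein sequences were not used here. Some named genes are not reported here. Figures were drawn with matplotlib 3.10.9.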

Additional observations from a re-analysis of the deposited data

Results flagged for a closer look

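For 35 of the named genes reported here the difference between TALL-1 and KOPT-K1 was not the same in BRM014 as in DMSO: the interaction was called by limma (Benjamini-Hochberg adjusted) and was at least 2-fold. Over all tested genes 561 (3.45%) met both conditions. The 35 were among 195 tested named genes, many chosen for a large line difference and 3 each way for this shift itself. Their number therefore cannot be set against that share. Values are the line difference in BRM014 minus that in DMSO, on the log2(TPM + 1) scale, each over 3 libraries per group. Where a line is under 1 TPM, the added 1 TPM enters the value, and the ratio of TPM can shift by less. For CCR7 (1.37) KOPT-K1 was at 10.3 TPM in DMSO and 2.21 TPM in BRM014, and TALL-1 at 0.635 and 0.191 TPM.

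In 18 genes the value was higher in BRM014. Cytokine and signalling genes in this direction were OSM (4.35), DUSP6 (2.80), TNFSF10 (2.36) and TNF (1.01). The antiproliferative gene BTG2 (3.25) was in this direction too. From the NOTCH pathway list LFNG (2.30) was in this direction. B-cell markers were IGLL1 (2.25), CD79B (1.74) and VPREB1 (1.10). RASGRP1 (1.40) was from the PI3K, AKT and RAS list, and CD247 (1.34) from the T-cell receptor list. The others were CCR7 (1.37), KRT83 (3.10), H19 (1.99), GZMA (1.89), CST7 (1.70), GADD45A (1.34) and BIK (1.13). For most of them KOPT-K1 was the higher line in DMSO. IGLL1 in KOPT-K1 was at 217 ± 15.0 TPM in DMSO and 37.7 ± 5.72 TPM in BRM014. For DUSP6 both lines differed, in opposite directions. It was at 189 ± 25.5 and 52.2 ± 9.01 TPM in KOPT-K1, and at 13.1 ± 1.07 and 26.4 ± 1.05 TPM in TALL-1.

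In 17 genes the value was lower in BRM014. From the lists of the NOTCH pathway, NOTCH1 targets and T lineage factors, those in this direction were NOTCH1 (-2.24), NRARP (-1.74), HES5 (-1.60), MYC (-1.57) and LEF1 (-1.52). Genes among the largest increases in DMSO were ACP5 (-3.56), PRDM16 (-2.50), EXD3 (-1.86), BHLHE23 (-1.34) and COL5A3 (-1.25). The others were PLEKHG1 (-2.79), PDGFRB (-2.75), RASA3 (-1.83), SLC29A2 (-1.34), GIMAP8 (-1.05), GBP1 (-1.01) and GIMAP4 (-1.0). PRDM16 in TALL-1 was at 62.8 ± 8.54 TPM in DMSO and 10.3 ± 1.57 TPM in BRM014, and MYC at 111 ± 19.0 and 37.0 ± 6.33 TPM, against 186 ± 23.7 and 188 ± 17.8 TPM in KOPT-K1. RASA3 went the other way in KOPT-K1, from 22.0 ± 2.14 TPM in DMSO to 81.1 ± 9.02 TPM in BRM014.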

How the results depend on the processing

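The counts of called genes stayed within 1.5 times their value in every alternative run. Leaving out each of the 6 DMSO libraries in turn gave 5406 to 5528 genes higher and 5419 to 5501 lower in TALL-1, and 1592 to 1666 and 1809 to 1844 by at least 2-fold. Leaving out 1 BRM014 library gave 5404 to 5699 higher and 5581 to 5770 lower in that comparison, and the difference between the line differences gave 1356 to 1536 higher and 1471 to 1727 lower. A pseudocount of 0.1 TPM gave 2348 and 2276 genes past 2-fold and limma-voom on the recovered reads 2409 and 2296. With the replicate block, 5925 genes were higher and 5846 lower, 1630 and 1817 by at least 2-fold, with 5978 and 6015 in BRM014 and 1887 and 2095 for the difference between the line differences. The block rests on numbers only. Departures from the group mean in DMSO correlated at 0.06, -0.01 and 0.05 between TALL-1 and KOPT-K1 libraries of the same number. All were under the 0.1 required, and numbers 1 and 3 but not 2 correlated best with their own. Leaving out ribosomal RNA genes, an alternative chosen after seeing the data, gave 5787 and 5668, and 1644 and 1813 by at least 2-fold.

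Over 197 named genes and their alternatives, 3098 results kept their direction and side of the threshold, 12 passed it only in the alternative, 29 passed it only in the analysis reported, and 0 turned. CD1A was called with the replicate block (adjusted p = 0.0385). Genes expressed in 1 line numbered 339 and 149 with up to 0.5 TPM in the other, 558 and 241 from a mean of 1 TPM, and 144 and 40 from a mean of 10 TPM. Without TALL-1 replicate 3 the medians of 4 lists moved by over 0.1, chosen after seeing the data: NF-kB genes to -0.63, GIMAP genes to -1.56, B-cell markers from -2.78 to -2.65, and replication-dependent histones from 0.90 to 0.44. Comparing paralogue proteins was planned and not run. Cultures of 1 line each cannot show how other T-ALL lines differ, and a low gene's fold is limited by the reads behind it.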

Other observations

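Genes named ZNF with a number, most of them zinc-finger repressors, leaned higher in TALL-1. Of 490 tested, 285 were called higher and 92 lower, 70 and 17 by at least 2-fold, with a median difference of 0.32 against 0.01 over all tested genes. They summed to 6741 to 6959 TPM in TALL-1 and 5589 to 5680 TPM in KOPT-K1. This list was chosen after the data were seen and was not tested as a set.

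Other runs of 4 neighbouring genes, each at a mean of at least 1 TPM in 1 line and a mean under 0.1 TPM in the other, were SCEL, SCEL-AS1, SLAIN1 and MIR3665 (chromosome 13, 77535706 to 77698116) and ST7, ST7-OT3, ASZ1 and CFTR (chromosome 7, 116953501 to 117668665) in KOPT-K1. KOPT-K1 also had such runs on chromosome 8, with DEFA6, DEFA4, DEFA8P and DEFA9P (6924697 to 6960161) and with FAM66B, LOC101929400, FAM85B and PRAG1 (7298744 to 8386439). In TALL-1, ZNF667, ZNF667-AS1, ZNF471 and ZFP28 (chromosome 19, 56439329 to 56556808) made such a run. So did MYO16-AS1, LOC105370359, LINC00399 and LOC107984602 (chromosome 13, 109163905 to 109571404). Overlapping genes and antisense partners in a run can share reads, and the genes were named after their values were seen.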
